A study of Rattus norvegicus with 6 samples.

Results

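The ATP-sensitive potassium (KATP) channel links the energy state of a cell to its membrane potential, and its 4 subunit genes, *Abcc8*, *Kcnj11*, *Abcc9* and *Kcnj8*, were followed in islets of young and older rats. They were chosen by symbol, through the RefSeq accession of each array probe, from 13903 genes with a matched probe. Each of the 4 genes had 1 probe, printed on 1 spot of the array. Islets had been isolated by collagenase digestion from male Wistar rats aged 3 months or 12 months, and total RNA of 3 samples of each age was hybridised to 1-colour Agilent arrays of Arraystar design. The rats carried no named allele and had received no named treatment before CO2 euthanasia. One 12-month array carries no number in the labels and is called replicate 3 here only to name it. The study names as many rats as arrays at each age, without saying which rat gave which array, and the p-values measure the spread between these arrays.

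A KATP channel is built of a pore formed by an inward rectifier (Kir6) subunit and a regulatory sulfonylurea receptor (SUR). *Kcnj11* encodes the pore subunit Kir6.2 and *Abcc8* encodes SUR1, and together they make up the channel of the beta cell. ATP made from glucose closes this channel, the membrane depolarises, calcium enters and insulin is released; sulfonylurea drugs close it through SUR1. *Kcnj8* encodes Kir6.1 and *Abcc9* encodes SUR2, the pair best known from vascular smooth muscle, pericytes and, for SUR2 with Kir6.2, cardiac and skeletal muscle. In the RefSeq order of assembly GRCr8, *Abcc8* and *Kcnj11* are direct neighbours, as are *Abcc9* and *Kcnj8*, so that each receptor gene lies beside a pore gene.

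The stretches upstream of the neighbouring genes *Abcc9* and *Kcnj8* are shown because the set of upstream sequences at hand held no entry for *Abcc8* and *Kcnj11*. Each sequence holds the 250 bases before the RefSeq start of the gene, 5′ to 3′ on the strand of the gene (GRCr8, minus strand, chr4:177386349-177386598 for *Abcc9* and chr4:177246549-177246798 for *Kcnj8*). Capitals mark matches to the GC box (GGGCGG) or the E-box (CANNTG), searched on both strands.
Abcc9: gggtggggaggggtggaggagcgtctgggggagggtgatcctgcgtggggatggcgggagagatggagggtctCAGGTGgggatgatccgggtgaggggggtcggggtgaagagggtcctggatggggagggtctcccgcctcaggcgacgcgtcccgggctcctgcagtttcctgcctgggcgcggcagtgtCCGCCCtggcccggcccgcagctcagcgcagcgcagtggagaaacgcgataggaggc
Kcnj8: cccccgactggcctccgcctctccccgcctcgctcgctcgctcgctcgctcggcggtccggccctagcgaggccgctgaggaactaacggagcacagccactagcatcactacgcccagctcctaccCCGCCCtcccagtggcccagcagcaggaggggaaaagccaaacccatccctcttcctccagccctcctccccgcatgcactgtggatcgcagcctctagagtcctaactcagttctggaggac
*Abcc9* held 1 GC box, read on the opposite strand, whose first printed base lay 57 bases before the start, and 1 E-box 177 bases before it. *Kcnj8* held 1 GC box, also on the opposite strand, 123 bases before the start, and no E-box. Of 33469 RefSeq windows of the same length, 30.5% held a GC box and 65.5% an E-box. Neither of these stretches held a CCAAT box (CCAAT, in 34% of all windows) or a TATA box (TATAAA, in 12.9%). The GC content was 71.2% upstream of *Abcc9* and 66.8% upstream of *Kcnj8*, against a median of 51.2% over all windows, and 93.1% and 87.4% of the windows had a lower GC content. These matches describe the letters and do not show that a factor binds there. *Abcc8* and *Kcnj11* have no sequence printed here.

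One scan read the 3 older arrays and another the 3 younger ones, and scan and age therefore cannot be told apart throughout. Between 54.1% and 59.1% of spots were well above background on the 12-month arrays and between 69.4% and 74.2% on the 3-month arrays. The lowest signal well above background was 39.0 to 52.4 scanner units at 12 months and 7.65 to 10.5 at 3 months, which sets how dim a transcript could be and still be measured at each age. All 4 subunit probes were well above background on all 6 arrays, and none was saturated. Of the 8 beta cell markers tested, all were well above background on every array, among them the insulin genes *Ins1* (log2 difference 0.10, adjusted p = 0.786, limma) and *Ins2* (-0.12, adjusted p = 0.737). Quantile normalisation gives probes of equal rank the same value, so probes near the top of every array can hardly differ. *Ins1* took 18.86 on both 12-month replicate 3 and 3-month replicate 1. With a shift to a common 75th percentile its difference was -0.67 (adjusted p = 0.411, limma), where the median of tested probes was -0.40. Whether insulin RNA differed with age is thus not settled by these values.

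Of the 4 subunits, *Abcc9* was higher in islets of 12-month-old rats past the adjusted threshold, *Kcnj8* missed it with a fold of 3.36, *Abcc8* varied too much between arrays to be placed, and *Kcnj11* gave no detectable difference, with 1 usable array at 3 months. In whole islets, more cells of a type and more RNA per cell cannot be told apart. In the limma fit across all probes with Benjamini-Hochberg adjustment, 1 of 4 subunits was called higher at an adjusted p under 0.05, against 4.87% of the 11202 tested genes, and 0 of 4 were called lower, against 2.96%. At a fold over 2 with an unadjusted limma p under 0.05, 2 of 4 were higher (*Abcc9* and *Kcnj8*), against 9.8% of tested genes, and 0 were lower, against 9.67%. The study took the same limits, and its supplement names a paired test without saying which arrays were paired. With arrays paired by replicate number, *Kcnj8* would not have passed (the methods' paired t-test, unadjusted p = 0.104) and *Abcc9* would (0.032). Without pairs *Kcnj8* would have passed (the methods' t-test, unadjusted p = 0.024), as would *Abcc9* (0.004). Whether *Kcnj8* passed under the pairing of the study is therefore not known. The arrays of the ages did not overlap for the same 2 subunits, higher at 12 months, against 17.1% of tested genes, and for 0 subunits in the other direction, against 22.3%. No subunit was lower at an unadjusted p under 0.05 by limma or by the methods' t-test either.

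**Figure D1:**
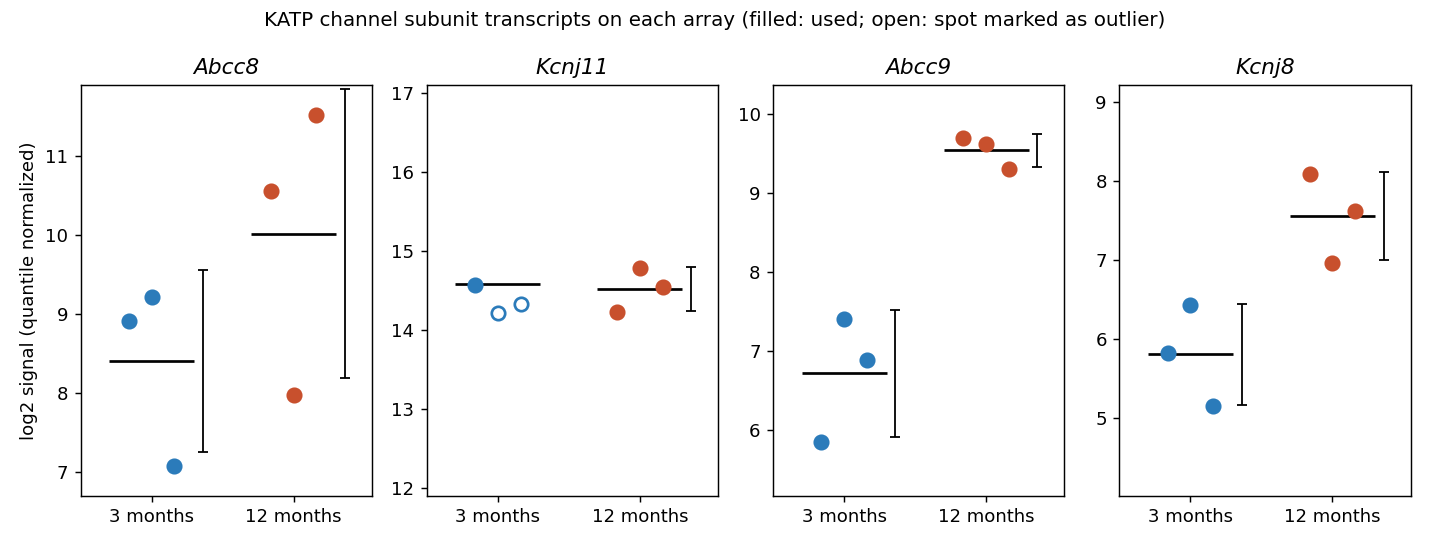
Quantile-normalised log2 signal (vertical axes, each spanning the same number of log2 units) of the 4 KATP channel subunits on each array of 3-month and 12-month islets. Points are arrays in order of replicate number, open points are spots marked as outliers and left out, lines are means and bars are SDs; *Abcc9* runs from 9.31 to 9.69 at 12 months and from 5.84 to 7.41 at 3 months, while the ages overlap for *Abcc8*.

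For *Abcc9*, which encodes the regulatory subunit SUR2, the background-subtracted signals before normalisation were 1720.0, 1338 and 618 scanner units on the 12-month arrays and 26.6, 148 and 131 on the 3-month arrays. After quantile normalisation the log2 signals were 9.69, 9.62 and 9.31 at 12 months and 5.84, 7.41 and 6.89 at 3 months. All 3 older samples lay above all 3 younger ones, and the older samples were the closer together. The means were 9.54 ± 0.20 (SD, n = 3) and 6.72 ± 0.80 (SD, n = 3), a log2 difference of 2.82 with a SE of 0.42 and a 95% confidence interval from 1.83 to 3.82. This corresponds to a 7.08-fold higher level (interval 3.54 to 14.2), with an adjusted p of 0.016 (limma, Benjamini-Hochberg). Of all tested genes, 1.29% had a larger rise. The exact permutation test over arrays gave p = 0.1, two-sided, the smallest value that 3 arrays against 3 allow. The call was lost when 12-month replicate 1, 12-month replicate 3 or 3-month replicate 3 was left out, with adjusted p-values of 0.070, 0.053 and 0.052 (limma) and log2 differences of 2.75, 2.94 and 2.91.

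For *Kcnj8*, the pore subunit Kir6.1 whose gene lies beside *Abcc9*, the signals were 553, 178 and 193 scanner units at 12 months and 26.3, 77.3 and 39.6 at 3 months. The normalised log2 signals were 8.08, 6.96 and 7.61 at 12 months and 5.82, 6.43 and 5.15 at 3 months. Here too the ages did not overlap, but the lowest 12-month array and the highest 3-month array were close. The means were 7.55 ± 0.56 (SD, n = 3) and 5.80 ± 0.64 (SD, n = 3), a log2 difference of 1.75 with a SE of 0.43 and a 95% confidence interval from 0.73 to 2.77. The fold was 3.36 (interval 1.66 to 6.82). The adjusted p of 0.054 (limma) missed the threshold, and the exact permutation test gave p = 0.1, again its smallest value. With an array left out it passed in 1 of 6 fits, without 12-month replicate 2 (difference 2.04, adjusted p = 0.039, limma), and the adjusted p was otherwise up to 0.169.

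For *Abcc8*, which encodes SUR1, the sulfonylurea receptor of the beta cell, the signals were 3047, 385 and 2533 scanner units at 12 months and 147, 528 and 147 at 3 months. The normalised log2 signals were 10.55, 7.97 and 11.51 at 12 months and 8.90, 9.21 and 7.08 at 3 months. Older replicates 1 and 3 lay above every younger array, whereas older replicate 2 lay below 3-month replicates 1 and 2. The means were 10.01 ± 1.83 (SD, n = 3) and 8.40 ± 1.15 (SD, n = 3). The log2 difference of 1.62 had a SE of 0.98 and a 95% confidence interval from -0.71 to 3.94, a range that holds a fall as well as a large rise (adjusted p = 0.285, limma; exact permutation p = 0.3). Leaving out an array moved the difference from 0.87 without 12-month replicate 3 (adjusted p = 0.585, limma) and 0.96 without 3-month replicate 3 (0.577) to 2.64 without 12-month replicate 2 (0.061). The pooled SD within an age was 1.53 for *Abcc8*, and 1.68% of tested genes had a larger one. It was 0.58 for *Abcc9*, 0.60 for *Kcnj8* and 0.24 for *Kcnj11*, against a median of 0.41 over all tested genes.

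For *Kcnj11*, which encodes Kir6.2, the pore of the beta cell channel, the signals were 32941, 47789.6 and 18782 scanner units at 12 months and 7527, 20118 and 28174 at 3 months. The spots on 3-month replicates 2 and 3 were marked as non-uniform by the scanner software and were left out, so that 1 array remained at 3 months. The normalised log2 signals were 14.23, 14.79 and 14.54 at 12 months and 14.58 on the remaining 3-month array. The marked spots would have given 14.22, just under the lowest older array, and 14.33, inside the older range. The log2 difference was -0.06 with a SE of 0.41 and a 95% confidence interval from -1.12 to 0.99 (adjusted p = 0.928, limma, in which the lone array is assumed to vary like the rest). With the marked spots kept, the means were 14.52 ± 0.28 (SD, n = 3) and 14.37 ± 0.18 (SD, n = 3) and the difference was 0.15, with an interval from -0.46 to 0.75 (adjusted p = 0.709, limma; exact permutation p = 0.6). Without the marked spots the interval ran from 0.46 to 1.99 as a fold of older over younger, and the p-values do not show that the level was equal.

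**Figure D2:**
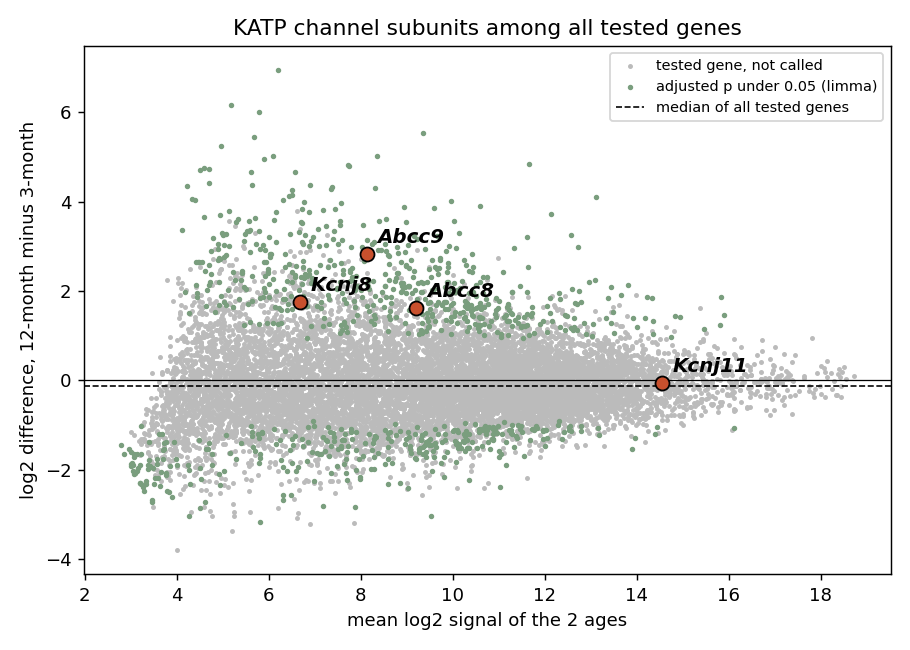
Log2 difference between 12-month and 3-month islets (vertical axis) against the mean log2 signal (horizontal axis) for all tested genes, with the 4 subunits labelled and genes at an adjusted p under 0.05 in green. *Abcc9* (2.82), *Kcnj8* (1.75) and *Abcc8* (1.62) lie above the median of all genes (-0.13), and *Kcnj11* (-0.06) lies near it.

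Relative to the median difference of all tested genes, which was -0.13, the log2 differences were 2.96 for *Abcc9*, 1.88 for *Kcnj8*, 1.75 for *Abcc8* and 0.07 for *Kcnj11*. Whether the subunits differed from each other in their response to age was tested on the difference between 2 log2 signals within each array, for 4 of the possible pairs. With 3 arrays against 3 the exact test cannot give a p under 0.1, so that no pair could pass a threshold of 0.05. Between the pore subunits, *Kcnj8* minus *Kcnj11* was 1.79 higher at 12 months with 1 usable 3-month array (exact permutation p = 0.25, the smallest that 4 arrangements allow) and 1.61 higher with the marked spots kept (exact permutation p = 0.2). Between the receptor subunits, *Abcc9* minus *Abcc8* was 1.21 higher at 12 months (exact permutation p = 0.5). Within the beta cell channel, *Abcc8* minus *Kcnj11* was 1.17 higher with 1 usable 3-month array (exact permutation p = 1) and 1.48 higher with the marked spots kept (exact permutation p = 0.3). Within the other channel *Abcc9* minus *Kcnj8* was 1.08 higher (exact permutation p = 0.3). Whether the subunits responded unequally to age is thus not settled by these arrays.

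**Figure D3:**
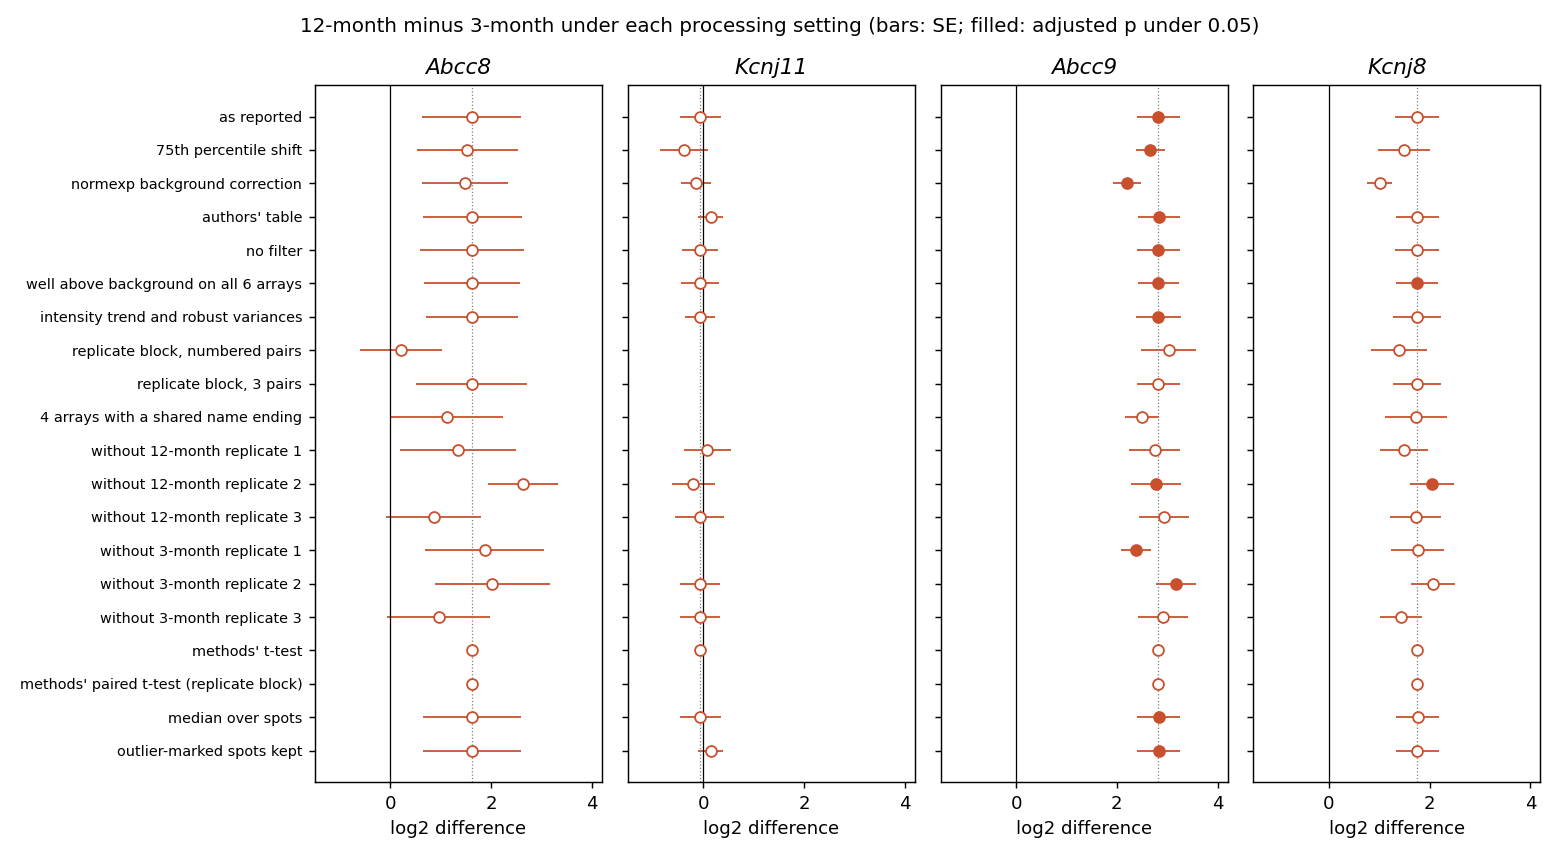
Log2 difference between 12-month and 3-month islets (horizontal axes) of each subunit under each processing setting (rows), with SE bars where the test gives one and filled points at an adjusted p under 0.05. *Abcc9* stays between 2.21 and 3.17 and *Kcnj8* between 1.00 and 2.06, while *Abcc8* ranges from 0.21 to 2.64 and *Kcnj11* changes sign.

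Of genes that act on the KATP channel or are bound to it (lipid kinases that make the activating phosphoinositides, protein kinases, glycolytic enzymes, chaperones and trafficking proteins), 20 of 27 listed were tested. At the adjusted threshold 1 rose and 0 fell, with a median log2 difference of 0.06. A share of 1 in 20 is close to that of all tested genes, of which 4.87% were higher and 2.96% lower, and the lists that follow are to be read against the same shares. The gene that rose was *Ywhaz*, a 14-3-3 adaptor protein of a family that binds many phosphorylated partners, with log2 signals of 13.54, 13.18 and 12.98 at 12 months and 10.74, 10.11 and 9.20 at 3 months. The ages were far apart for it, with a difference of 3.22 (SE 0.42, adjusted p = 0.011, limma), although the call was lost without 12-month replicate 1 (adjusted p = 0.056). The brightest gene of the list, the chaperone *Hspa8*, differed by 0.09 (adjusted p = 0.788, limma). The lipid kinase *Pip5k1b* had a difference of 1.40 and an adjusted p of 0.066 (limma).

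Of 25 listed genes upstream of the channel, from glucose uptake to the making of ATP, 24 were tested, of which 2 rose and 0 fell (median difference 0.09). They were *Slc2a2*, the glucose transporter of the beta cell, and *Ucp2*, a mitochondrial carrier of the uncoupling protein family. *Slc2a2* had log2 signals of 14.99, 15.61 and 14.92 at 12 months and 10.79, 10.73 and 11.67 at 3 months, a difference of 4.11 (SE 0.35, adjusted p = 0.004, limma). *Ucp2* had log2 signals of 8.41, 6.997 and 8.91 at 12 months and 4.81, 5.18 and 4.52 at 3 months, a difference of 3.27 (SE 0.51, adjusted p = 0.018, limma). For both, every older sample lay well above every younger one. The call of *Slc2a2* held whichever array was left out, and that of *Ucp2* was lost without 12-month replicate 1 or 3 or 3-month replicate 1 or 3, with an adjusted p of up to 0.075 (limma). *Mdh1*, a dehydrogenase of the malate shuttle and the brightest of the list, had a difference of -0.04 (adjusted p = 0.943, limma).

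Of 17 listed genes downstream of the channel, which carry the action potential or handle calcium, 14 were tested, of which 1 rose and 0 fell (median difference 0.24). *Cacna1c*, a pore subunit of L-type calcium channels, had log2 signals of 10.17, 10.21 and 9.78 at 12 months and 8.63, 9.03 and 8.93 at 3 months. The difference was 1.19 (SE 0.25, adjusted p = 0.037, limma), and the call was lost in all 6 fits with an array left out (adjusted p up to 0.145). The calcium pump *Atp2a2*, the brightest of the list, had a difference of 0.37 (adjusted p = 0.296, limma).

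Relatives of the subunits were read next. Of 9 other listed transporters of the ABC subfamily C, 7 were tested and 0 passed the adjusted threshold (limma). At an unadjusted p under 0.05 there was 1, lower at 12 months, and the methods' t-test with adjustment gave 0. Their differences ran from -0.75 to 0.66 with a median of 0.29, and *Abcc9* at 2.82 and *Abcc8* at 1.62 lay above that range. Of 13 other listed inward rectifier genes, 7 were tested, of which 0 rose and 1 fell. This was *Kcnj4*, which encodes Kir2.3, with a difference of -1.14 (SE 0.25, adjusted p = 0.043, limma). Its log2 signals were 5.15, 5.16 and 4.86 at 12 months and 6.23, 6.47 and 5.90 at 3 months, but it was well above background on 1 of the 3 older arrays only, and the call was lost in all 6 fits with an array left out (adjusted p up to 0.140, limma). *Kcnj1* was well above background on 0 of 3 older arrays and was kept through the younger ones alone, so that its difference is not measured. The others of these 7 ran from -1.14 to 1.60, and *Kcnj8* at 1.75 lay just above that range.

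**Figure D4:**
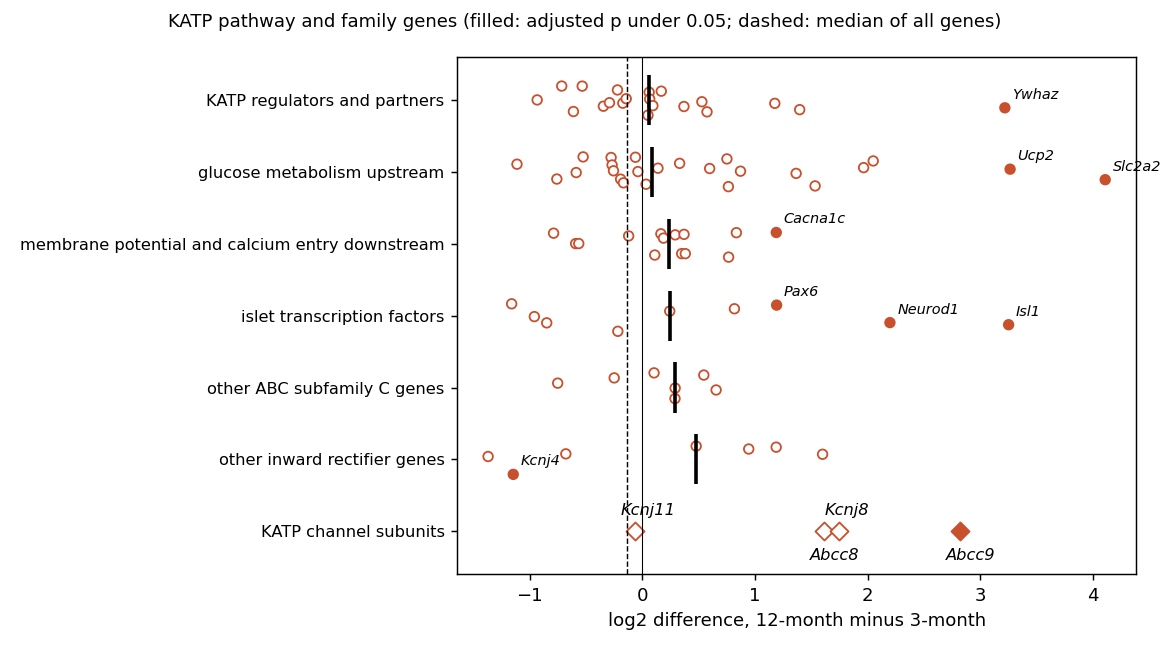
Log2 difference between 12-month and 3-month islets (horizontal axis) for each tested gene of 6 lists and for the 4 subunits (diamonds), with vertical placing within a row arbitrary. Short lines are list medians, the dashed line is the median of all tested genes (-0.13) and filled symbols have an adjusted p under 0.05. List medians lie between 0.06 and 0.48, and *Abcc9* is the filled diamond. The inward rectifier row and its median include *Kcnj1*, whose difference is not measured.

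Of 15 listed transcription factors of the islet, 9 were tested, of which 3 rose and 0 fell (median difference 0.24). *Isl1*, a factor of endocrine development, had a difference of 3.25 (SE 0.41, adjusted p = 0.011, limma). *Neurod1*, a factor of beta cell maturation, had one of 2.20 (SE 0.28, adjusted p = 0.011, limma), and *Pax6*, needed for hormone gene expression, one of 1.19 (SE 0.28, adjusted p = 0.049, limma). The calls of *Isl1* and *Neurod1* held in all 6 fits with an array left out, and that of *Pax6* in 0 of 6 (adjusted p up to 0.143, limma). *Foxa2* had a difference of 0.82 (adjusted p = 0.088, limma), and *Nkx6-1*, the brightest, one of -0.22 (adjusted p = 0.650, limma).

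Genes beside the subunits on the chromosome were read as well. Of the 6 genes nearest to *Abcc8* and *Kcnj11*, 2 were tested, and for both the older arrays lay below the younger ones without overlap, as for 22.3% of all tested genes. *Nomo1*, which encodes a membrane protein of the endoplasmic reticulum, had log2 signals of 13.87, 14.11 and 13.81 at 12 months and 14.95, 15.14 and 14.81 at 3 months, a difference of -1.04 (adjusted p = 0.043, limma). The call of *Nomo1* held in 1 of 6 fits with an array left out, with an adjusted p of up to 0.159 (limma). *Otog* had a difference of -1.12 (adjusted p = 0.154, limma). Of the 6 genes nearest to *Abcc9* and *Kcnj8*, 3 were tested and 0 passed the adjusted threshold, an unadjusted p of 0.05 or the methods' t-test. Their differences were -0.42 for *Gys2*, a glycogen synthase, -0.45 for *Cmas*, an enzyme of sialic acid activation, and 1.48 for *St8sia1*, a sialyltransferase.

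Because *Abcc9* and *Kcnj8* are genes of vascular mural cells in many tissues, the markers of other cells were set beside them. Of 14 listed pericyte and vascular smooth muscle markers, 12 were tested, of which 1 rose and 2 fell (median difference -0.16). With marked spots kept, as for each list mean below, the mean log2 signal of these 12 ran from 9.20 to 10.01 over the 12-month arrays and from 9.57 to 9.70 over the 3-month arrays, so that the ages overlapped. None of the 12 was below background throughout an age. *Pdgfrb*, the receptor that marks pericytes, rose by 1.68 (SE 0.38, adjusted p = 0.045, limma), with log2 signals of 11.11, 10.31 and 10.38 at 12 months and 8.74, 9.56 and 8.46 at 3 months. *Rgs5*, a regulator of G protein signalling in pericytes, had a difference of 1.46 (adjusted p = 0.096, limma), and its arrays overlapped. *Notch3*, a receptor of mural cells, fell by 1.62 on the log2 scale (SE 0.31, adjusted p = 0.029, limma) and *Cnn1*, a contractile protein of smooth muscle, fell by 1.84 (SE 0.39, adjusted p = 0.037, limma). *Cspg4* had a difference of -0.92 (adjusted p = 0.056, limma). With an array left out, the calls of *Pdgfrb* and *Notch3* each held in 2 of 6 fits, without 12-month replicate 2 or without 3-month replicate 2, and that of *Cnn1* in 0 of 6. The part of these cells in the difference of *Abcc9* was not tested.

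The other marker lists moved in both directions. Of 12 listed endothelial markers, 8 were tested, of which 0 rose and 1 fell at the adjusted threshold (median -0.76). By sign 2 were higher and 6 lower, and 5 were lower without overlap, against 22.3% of all tested genes. The mean log2 signal was 8.98 to 9.46 at 12 months and 9.94 to 10.2 at 3 months. *Pecam1* was among those that were higher, with a difference of 1.23 (adjusted p = 0.124, limma). *Cdh5* stood well above background on 0 of 3 arrays at 12 months and was kept through the younger arrays alone. It is counted in these list values, the 5 lower without overlap included, although its difference is not measured. Striated muscle, where SUR2 is abundant, gave 9 tested markers, of which 0 rose and 4 fell (median -1.64). Of the 9, 3 were not above background on any older array and were kept through the younger arrays alone, where they are brighter. With these markers counted, the list had a mean log2 signal of 5.93 to 6.64 at 12 months and 6.84 to 7.96 at 3 months. The list values for striated muscle, its median and its count of 4 included, therefore measure neither the size of a fall nor how many markers fell. The 5 tested fibroblast markers had a median of 1.39, and 0 passed the adjusted threshold (limma), 3 an unadjusted p under 0.05 and 0 the methods' t-test. Their mean log2 signal was 11.4 to 12.5 at 12 months and 10.1 to 11.1 at 3 months. Of 8 beta cell markers 2 rose, *Slc2a2* (4.11) and *Slc30a8*, the zinc transporter of insulin granules (3.71, adjusted p = 0.009, limma). The median difference of the list was 0.53, with 6 markers higher and 2 lower. The mean over the list, on which the large differences of *Slc2a2* and *Slc30a8* weigh, was 15.1 to 15.6 at 12 months and 13.9 to 14.3 at 3 months. *Iapp* had a difference of 0.95 (adjusted p = 0.053), *Ucn3* 1.49 (0.174) and *Glp1r* 0.04 (0.950, limma). Of 2 delta cell markers 1 rose (*Hhex*), and of 6 Schwann cell and glial markers 2 fell. None of 6 alpha cell, 8 acinar and 5 immune markers passed the adjusted threshold (limma), with 1, 0 and 0 at an unadjusted p under 0.05 and 0 by the methods' t-test.

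Over the 3 arrays of each age, *Abcc8* had the same order as the level of exocrine transcripts. The mean log2 signal of 8 acinar markers, genes of digestive enzymes, was 18.14, 16.98 and 18.27 on the 12-month arrays and 17.97, 18.09 and 17.10 on the 3-month arrays. Within each age the array with the lowest acinar level also had the lowest *Abcc8*, and the array with the highest acinar level the highest *Abcc8*. This was noticed after the values were seen, and 1 of 10 marker lists gave the order of *Abcc8* at both ages. The beta cell list gave it at 12 months only and the delta cell list at 3 months only. Each age holds 3 arrays, so that 1 list of 10 can share the order by chance. The part of acinar RNA in the spread of *Abcc8* was not tested.

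**Figure D5:**
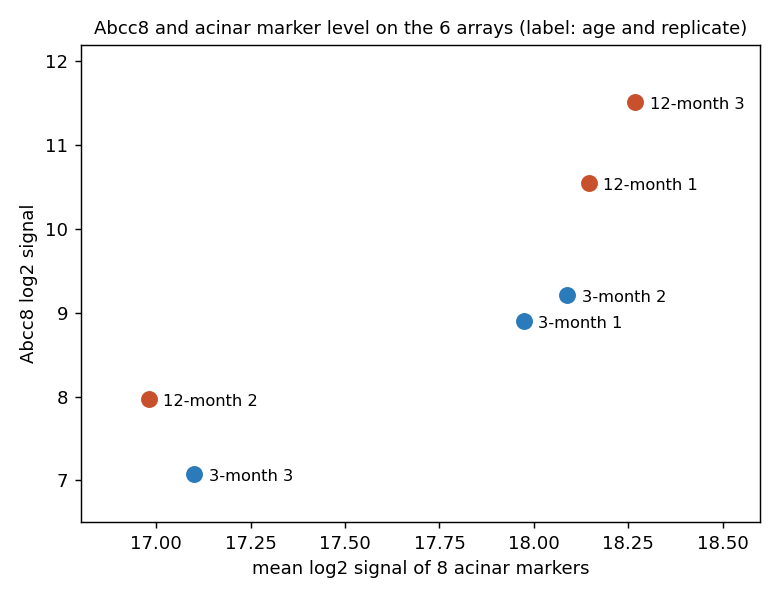
*Abcc8* log2 signal (vertical axis) against the mean log2 signal of 8 acinar markers (horizontal axis) on the 6 arrays, labelled by age and replicate. The arrays with acinar levels of 16.98 and 17.10 have the lowest *Abcc8* of their age, 7.97 and 7.08.

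The genes whose profile over the arrays was most like that of each subunit were named by the root mean square difference between mean-centred log2 signals, as a description without a test. For *Abcc9* they were *Tnfrsf11b*, the decoy receptor osteoprotegerin (0.17), *Tut4*, a terminal uridylyltransferase (0.24), and *Sbds*, a ribosome maturation factor (0.25), over 6 arrays. For *Kcnj8* they were *Pld1*, a phospholipase (0.12), *Ipo13*, a nuclear import receptor (0.15), and *Cited2*, a transcriptional cofactor (0.18), over 6 arrays. For *Abcc8* they were *Kdm8*, *Cfap410* and *Hagh*, at 0.26, 0.27 and 0.29 over 6 arrays. For *Kcnj11* the profile rested on the 4 arrays with a value, and the nearest genes were *Ide*, the insulin-degrading enzyme, *Zfp955a* and *Cldn6*, at 0.022, 0.027 and 0.029. The 4 hold 1 younger array, so these distances cannot be set against those over 6 arrays. In the age comparison these genes had log2 differences of -0.36, 0.02 and -0.68. No subunit was among the nearest genes of another.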

How the data were processed

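The authors deposited Agilent scanner files, which hold per the file headers spot intensity from Feature Extraction 11.0.1.1 after background subtraction. A deposited table with log2 values of 12145 probes served as an alternative and followed the values computed here with r of at least 0.9996 on each array. Log2 intensity was averaged over spots not marked as outliers, quantile normalised, and kept for 17944 probes well above background on at least 3 of 6 arrays; 17941 were tested. Ages were compared in R 4.3.3 with two-sided limma 3.58.1 (lmFit and eBayes, without a block) and adjusted by Benjamini-Hochberg over tested probes. Before that, the step was tried on simulated data with 200 changed probes. It recovered 0% of changes of 2-fold, 35.5% of changes of 4-fold and 71% of changes of 8-fold. A gene that was not called can therefore still differ. Arrays have no read depth, and their number limits the precision. Probes were named through RefSeq accessions without versions. The array design uses another build than GRCr8, so probes have no coordinates here, while gene order and upstream windows follow GRCr8. Genes with more than 1 probe took the value of the brightest.

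The subunits and the 18 lists (pathways, relatives, neighbours and cell types) were chosen with earlier results of these data known. Of the pathway, relative and neighbour lists, genes past the adjusted threshold and the brightest were named by rule, with marker genes of beta and mural cells; *Pip5k1b*, *Foxa2*, *Otog*, *Gys2*, *St8sia1* and *Hhex* were added after their values were seen. Some listed genes are counted but not reported here by name.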

Additional observations from a re-analysis of the deposited data

How the results depend on the processing

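Tried besides were a shift to a common 75th percentile, normexp, the authors' table, other filters, variance models, replicate blocks, fewer arrays and plain t-tests. The median over spots was another, and with 1 probe a gene no other probe rule applied. *Abcc9* was positive under all 19 alternatives and passed under 11, with adjusted p-values from 0.009 to 0.273. It no longer passed with a replicate block of numbered pairs (3.03, limma adjusted p = 0.238) or of 3 pairs (2.82, 0.076). Nor did it pass by the methods' t-test (2.82, 0.073) or paired t-test (2.82, 0.273). On the 4 arrays whose descriptions share an ending it did not pass either (2.50, limma adjusted p = 0.108). Those were 12-month replicates 1 and 2 and 3-month replicates 2 and 3, and the labels do not say what the ending means. Leaving out arrays gave 2.39 to 3.17. *Kcnj8* was positive under all 19 and passed under 2, one of them with probes above background on all 6 arrays (1.75, limma adjusted p = 0.040), where fewer probes were tested. Its adjusted p was 0.093 with the 75th percentile shift, 0.340 and 0.147 with the blocks, and 0.134 and 0.367 by the t-test and paired t-test; leaving out arrays gave 1.42 to 2.06. *Abcc8* passed under 0 of 20. *Kcnj11* was positive in the authors' table (0.15), and, chosen after seeing the data, with marked spots kept on all arrays (0.15) and on those 4 (0.24); leaving out arrays gave -0.20 to 0.083, and with marked spots kept 0.010, 0.067, 0.12, 0.14, 0.25 and 0.29. It could not be fitted with a block or without 3-month replicate 1. Over the alternatives, 0 to 5 genes of a pathway or family list were called. Deviations from the mean of each age had correlations of -0.01, -0.31 and -0.26 between arrays of the same number. The last pair rests on the name replicate 3 given here. These correlations cannot show which arrays the study paired. Probes differing with age numbered 1496 (953 higher), 2338 without a filter, 0 and 97 with the numbered and the 3-pair block, 0 on the 4 arrays, 435 and 1 by the t-test and paired t-test, and 208 to 2169 with an array left out. With the 75th percentile shift 794 of 1719 were higher, and the median of tested probes was -0.40 in place of -0.17. Signs turned for genes near 0: with that shift *Hspa8* (-0.35), *Atp2a2* (-0.021), *Ins1* (-0.67), *Glp1r* (-0.13) and *Cox4i2* (-0.25); with normexp *Glp1r* (-0.076); with numbered pairs *Mdh1* (0.34), *Glp1r* (-0.053) and *Mcam* (-0.49); on the 4 arrays *Mdh1* (0.08), *Kcnj5* (-0.11), *Mcam* (-0.18) and *Cox4i2* (-0.11). Leaving out arrays also turned the sign of *Mdh1* (-0.28 to 0.19), *Nkx6-1* (-0.47 to 0.020), *Ins1* (-0.022 to 0.19), *Glp1r* (-0.36 to 0.36), *Mcam* (-0.16 to 1.15) and *Cox4i2* (-0.22 to 0.52). The cause was not tested.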
